A study of Mus musculus with 10 samples.

Results

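The long regions described here are autosomal stretches of the mouse genome, at least 16000 bp long, in which all 4 marks were called in round spermatids and in spermatocytes. Islands, the enriched intervals of the deposited lists, were merged across all 8 lists wherever they shared at least 1 bp, and a list covered a merged region that held 1 or more of its islands. Of 59989 merged regions, 15547 on chromosomes 1 to 19 were covered by all 8 lists, and 2146 of these were 16000 bp or longer. The long regions were thus 3.58% of all merged regions and 13.8% of the autosomal regions with all 8 lists. The calls and the lengths chose them, so the members were chosen by measured values, and their calls and lengths are given as description.

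The 4 marks, acetyl and butyryl groups on lysine 5 or lysine 8 of histone H4, were mapped by chromatin immunoprecipitation and sequencing of mononucleosomes from fractionated testis cells of the mouse strain Oncins France 1. Round spermatids, the haploid cells formed by meiosis, were compared with spermatocytes, the cells in meiosis. Each stage had 1 library per mark (H4K5ac, H4K5bu, H4K8ac, H4K8bu) and 1 input library without antibody, 10 samples in all. About 100 ug of mononucleosomes and 5 ug of rabbit antibody went into each immunoprecipitation, those against the acetyl marks being gifts and those against the butyryl marks commercial. Neither stage carried a mutation or treatment, and the age of the animals, their number and the purity of the fractions are not stated in the sources at hand.

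Acetyl groups on the H4 tail neutralise the charge of lysine and are typical of the chromatin around active genes. Butyryl is a longer acyl group on the same lysine, so a single lysine carries one or the other. In male germ cells hyperacetylated H4 is bound by the testis bromodomain protein Brdt, which needs acetyl at lysine 5, and butyryl at lysine 5 hinders that binding. In later spermatids most histones are replaced by transition proteins and protamines.

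With 1 library per group, there was no replicate spread to judge a difference by, and no test between stages was made. Intervals are 95%. Those of a fold cover counting error only, and those of a median cover the spread between regions, not a shift shared by a whole list. ChIP reads inside islands numbered 4768412 to 9227752 in the round spermatid lists and 5587630 to 9230541 in the spermatocyte lists. Within the long regions, a single list held between 46 and 9107 ChIP reads per region, and 2119 regions had 100 or more reads in every list.

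The long regions had a median length of 20200 bp, with quartiles at 17600 and 24600 bp, and the longest spanned 108400 bp. Of the 2146, 1030 were shorter than 20000 bp, 877 were between 20000 and 30000 bp and 239 were longer. Together they held 48.4 Mb, 31.0% of the length of the autosomal regions with all 8 lists. Length alone nearly sufficed for membership: 2185 autosomal regions reached 16000 bp, and only 39 of them lacked a list, most often H4K8ac of spermatocytes (21 regions). Exactly 16000 bp was the length of 62 regions, and 80 regions with all 8 lists were 1 window of 200 bp shorter. On either side of that limit the median fold of round spermatid H4K5ac was 6.09 just inside and 6.69 just outside, and that of spermatocyte H4K5ac was 6.83 inside and 6.66 outside.

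Islands of round spermatids reached further than those of spermatocytes in most long regions, though a median of 77.9% of the length lay under islands of both stages and 18.1% under those of round spermatids alone. The islands of round spermatids, whatever the mark, spanned more of the region than those of spermatocytes in 1799 long regions (83.8%), less in 321 and as much in 26. Of the 4292 region ends, 3036 (70.7%) were reached by round spermatid islands alone, 955 (22.3%) by spermatocyte islands alone and 301 by both. Islands of round spermatids joined into 1 stretch across 1902 regions (88.6%), while those of spermatocytes did so in 1289 (60.1%). A stretch of 16000 bp or more was present in round spermatids in 1865 regions (86.9%) and in spermatocytes in 862 (40.2%). These counts include 729 regions where both stages had one, and neither had one in 148, where only the union of the stages was that long. Wider round spermatid islands were not particular to the long regions. Regions of 8000 to under 16000 bp with all 8 lists had a median cover of 100% in round spermatids and 80.5% in spermatocytes, beside 100% and 81.9% in the long regions. There a median of 19.5% of the length lay under round spermatid islands alone. Single stretches were held by 95.9% of these shorter regions in round spermatids and 89.5% in spermatocytes.

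The marks filled the regions to unequal degrees. In round spermatids the median share of region length under islands was 87.4% (H4K8bu), 87.3% (H4K5bu), 84.1% (H4K5ac) and 62.1% (H4K8ac). In spermatocytes it was 70.4% (H4K8bu), 66.7% (H4K5bu), 63.2% (H4K5ac) and 50.0% (H4K8ac). By these medians H4K8ac was the narrowest mark in both stages. H4K8bu was the broadest in spermatocytes and level with H4K5bu in round spermatids. The H4K8ac lists also held the fewest ChIP reads inside islands in each stage, and whether read depth enters the widths was not tested. All 8 lists overlapped on a median of 38.4% of the length, in a median of 2 separate blocks, and the longest such block had a median of 5600 bp. A single common block was found in 743 regions, 3 or more in 551 and none in 8. A region of this kind was therefore usually a chain of shared blocks joined by islands of fewer lists: an island of 16000 bp or more occurred in at least 1 list in 1574 regions (73.3%) and in every list in 38 (1.77%).

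**Figure D1:**
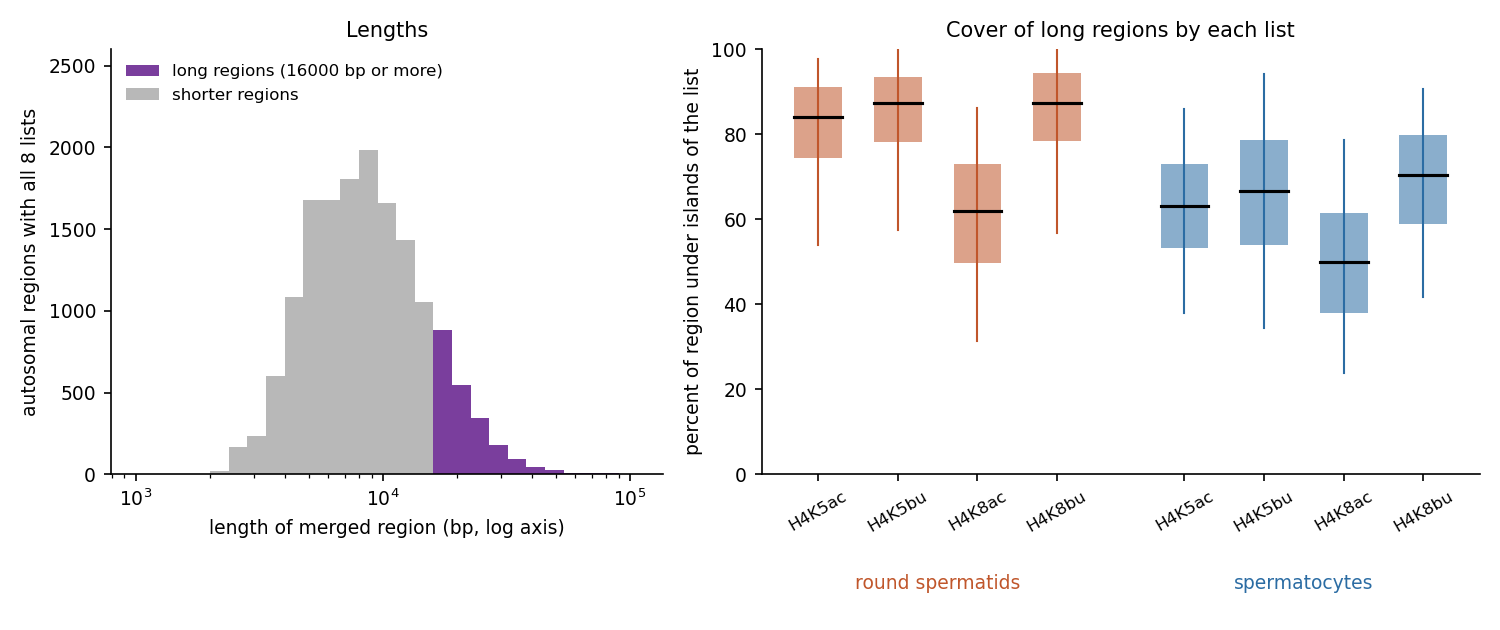
Left, number of autosomal regions with all 8 lists by length (bp, log axis, bins of equal width on that axis), with the 2146 long regions in purple and shorter regions in grey. Right, percent of each long region under islands of each list: black lines are medians, boxes the 25th to 75th and whiskers the 5th to 95th percentiles over regions. The round spermatid medians lie between 62.1% and 87.4% and the spermatocyte medians between 50.0% and 70.4%.

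H4K5ac had the highest fold in nearly all long regions, and the order of the other marks differed between stages. Fold is the ratio of ChIP to input reads in the islands of a region, scaled by 1 constant per list. In round spermatids the long regions had a median H4K5ac fold of 6.93, followed by H4K5bu at 5.03, H4K8bu at 4.64 and H4K8ac at 3.62. In spermatocytes H4K5ac at 7.38 was followed by H4K8bu at 5.29, H4K5bu at 4.68 and H4K8ac at 4.53. H4K5ac had the highest fold of its stage in 96.9% of the regions in round spermatids and 95.9% in spermatocytes. H4K8ac had the lowest in 93.0% in round spermatids and 57.0% in spermatocytes, where H4K5bu was lowest in a further 35.4%. Shorter regions with all 8 lists had much the same order. H4K5ac was highest in 92.4% (round spermatids) and 91.2% (spermatocytes) of those of 8000 to under 16000 bp. Under 8000 bp it was highest in 82.9% and 87.7%. H4K8ac was lowest in round spermatids in 85.0% and 76.2% of these 2 classes, and in spermatocytes in 47.3% and 45.7%. A fold of 2 or more in all 8 lists was reached by 2066 regions (96.3%).

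Across the length classes the median fold was higher in longer regions in round spermatids. In spermatocytes it was highest in the shortest class and lowest in the middle one. The median H4K5ac fold in round spermatids was 6.93 in the long regions, 6.54 in regions of 8000 to under 16000 bp (n = 6132) and 5.74 in regions under 8000 bp (n = 7269). In spermatocytes the corresponding medians were 7.38, 7.18 and 8.77, so that the shortest regions had the highest H4K5ac fold. The other marks had the same order over length in round spermatids, H4K5bu at 5.03, 4.78 and 4.46, and H4K8ac at 3.62, 3.51 and 3.31. For H4K8bu the medians were 4.64, 4.40 and 4.01. In spermatocytes each of them was highest in the shortest regions, at 6.33 (H4K8bu), 5.28 (H4K5bu) and 5.26 (H4K8ac). The long regions followed at 5.29, 4.68 and 4.53, and the middle class was lowest at 5.19, 4.46 and 4.41. Within the long regions the round spermatid H4K5ac median hardly changed with length, at 6.92 (under 20000 bp), 6.96 (20000 to under 30000 bp) and 6.97 (30000 bp or more). The long regions held 25.4% to 26.9% of the ChIP reads of the round spermatid lists and 21.3% to 22.2% of those of the spermatocyte lists.

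**Figure D2:**
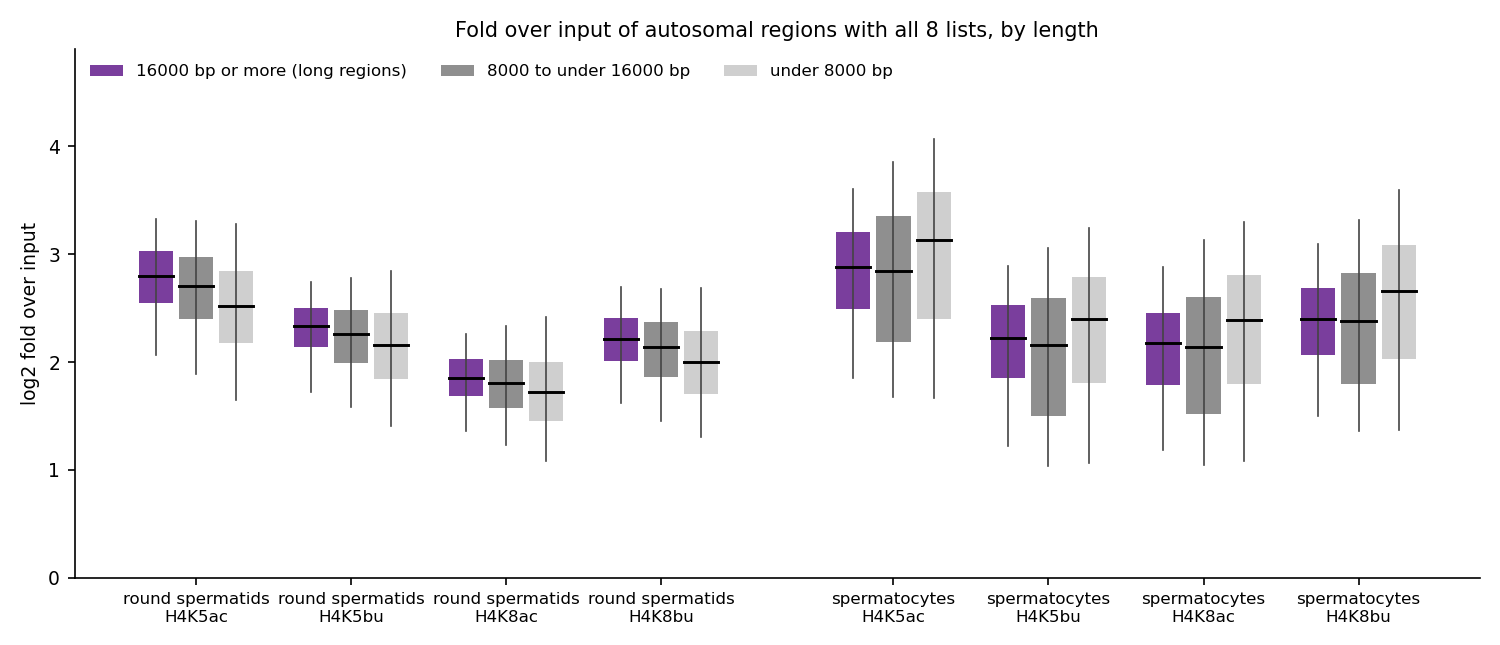
Log2 fold over input of autosomal regions with all 8 lists, by list and by length of the region, long regions first (n = 2146, 6132 and 7269). Black lines are medians, boxes the 25th to 75th and whiskers the 5th to 95th percentiles over regions. In round spermatids the medians are higher in longer regions, and in spermatocytes they are highest in the shortest.

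Set against spermatocytes, the long regions differed by mark. The median log2 fold of round spermatids over spermatocytes was 0.13 for H4K5bu (0.10 to 0.15), -0.06 for H4K5ac (-0.09 to -0.03), -0.16 for H4K8bu (-0.18 to -0.13) and -0.28 for H4K8ac (-0.29 to -0.25). The signs of the last 3 depend on the scale, and with lists cut to equal length the H4K5bu median was 0.0015 (-0.019 to 0.024). Where every list covered 50% or more of the region, the H4K5ac median was 0.058. As RPM, the ChIP reads in the islands of a region scaled to all island reads of the list and not divided by input, the medians were 0.45 (H4K8ac), 0.36 (H4K5bu), 0.33 (H4K5ac) and 0.28 (H4K8bu). That change of scale moved the median of all autosomal regions called in both stages by 0.49 (H4K8ac), 0.40 (H4K8bu), 0.35 (H4K5ac) and -0.08 (H4K5bu). Relative to those medians the long regions lay higher in round spermatids on both scales: by 0.19 (fold) and 0.22 (RPM) in H4K5ac, 0.22 and 0.53 in H4K5bu, 0.15 and 0.39 in H4K8ac, and 0.12 and 0.16 in H4K8bu. RPM also counts the wider islands of round spermatids. The higher fold was not particular to the long regions. In regions of 8000 to under 16000 bp with all 8 lists the fold medians were -0.15 (H4K5ac), 0.10 (H4K5bu), -0.32 (H4K8ac) and -0.24 (H4K8bu). These too lay above the medians of all autosomal regions called in both stages, at -0.25, -0.09, -0.43 and -0.28. Under 8000 bp the medians lay below them, at -0.59, -0.20, -0.62 and -0.64.

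In each mark a minority of the long regions differed by 1.5-fold or more, and on the fold scale these shares lay below or near those of all autosomal regions called in both stages. H4K5ac was at least 1.5-fold higher in round spermatids in 249 long regions (11.6%, background 17.5%) and at least 1.5-fold lower in 343 (16.0%, background 35.2%). H4K5bu was higher in 355 (16.5%, background 17.9%, near the background) and lower in 114 (5.31%, background 20.7%). H4K8ac was higher in 92 (4.29%, background 6.99%) and lower in 557 (26.0%, background 40.7%). H4K8bu was higher in 122 (5.69%, background 11.8%) and lower in 415 (19.3%, background 35.6%). As RPM, the shares at least 1.5-fold higher in round spermatids were 38.5% (H4K8ac, background 28.8%), 31.8% (H4K5bu, background 23.2%), 26.3% (H4K5ac, background 33.9%) and 21.3% (H4K8bu, background 29.9%). Those at least 1.5-fold lower as RPM were 7.18% (H4K5bu, background 35.3%), 6.57% (H4K8ac, background 24.1%), 6.20% (H4K5ac, background 26.9%) and 5.73% (H4K8bu, background 23.2%). Longer regions hold more reads, so their ratios scatter less for that reason alone, and how much of the gap this makes up was not tested. By any amount, all 4 marks were higher in round spermatids in 493 long regions (23.0%, background over regions with all 8 lists 21.2%) and lower in 718 (33.5%, background 46.4%). That background pools unlike lengths. All 4 were higher in 28.3% and lower in 38.0% of its regions of 8000 to under 16000 bp. Under 8000 bp they were higher in 14.6% and lower in 57.2%. All 4 differed by 1.5-fold or more upward in 51 long regions (2.38%, background 3.67%) and downward in 56 (2.61%, background 11.3%). Singly, H4K5bu was higher in round spermatids by any amount in 61.5% (background 44.3%) and H4K5ac in 45.3% (background 39.8%). H4K8bu was so in 37.4% (background 37.6%) and H4K8ac in 28.4% (background 28.4%), both at the background. Regions of 8000 to under 16000 bp with all 8 lists had H4K5bu higher in 56.2% and H4K5ac in 43.3%, closer to the long regions. H4K5bu alone was higher in 317 long regions (14.8%, background over regions with all 8 lists 12.1%). H4K5bu had the most positive difference of the 4 marks in 69.5% of the long regions (background 64.4%, near it), and H4K8ac the most negative in 57.1% (background 44.4%).

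Under the naming rule, 3 regions had the largest differences towards round spermatids, all of them near the minimum length. In the region on chromosome 14 from 72247001 to 72264600, 17600 bp long, H4K5ac had a fold of 10.3 (9.02 to 11.8) in round spermatids, H4K8bu 6.97 (6.09 to 8.01), H4K5bu 6.06 (5.34 to 6.89) and H4K8ac 4.14 (3.60 to 4.77). In spermatocytes H4K5ac had 3.81 (3.26 to 4.47), H4K8bu 2.95 (2.57 to 3.40), H4K5bu 2.34 (1.99 to 2.77) and H4K8ac 2.17 (1.85 to 2.55). No interval of one stage overlapped that of the other, and the log2 differences were 1.44 (H4K5ac), 1.37 (H4K5bu), 1.24 (H4K8bu) and 0.93 (H4K8ac). The regions on chromosome 11 from 103352001 to 103369400 and on chromosome 5 from 44811001 to 44828400 also had all 4 marks higher, with H4K5ac folds of 11.1 and 12.9 in round spermatids, against 4.78 and 5.15 in spermatocytes. In these 3 regions all 4 marks were also higher in round spermatids as RPM.

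The 3 regions with the largest fold differences towards spermatocytes were unlike each other as RPM. In the region on chromosome 13 from 81019401 to 81036200, which also had the highest mean fold of all, H4K5ac was at 10.9 (9.08 to 13.2) over 9600 bp in round spermatids and at 25.1 (19.1 to 33.5) over 7400 bp in spermatocytes. H4K8bu was at 4.15 (3.61 to 4.78) over 15600 bp in round spermatids and at 18.7 (14.2 to 25.1) over 7400 bp in spermatocytes. In RPM its differences were small, between -0.29 for H4K5ac and 0.26 for H4K5bu. The region on chromosome 11 from 120286401 to 120302800 had log2 fold differences of -2.09 for H4K5ac and -1.05 for H4K5bu, which as RPM were 0.41 and 0.68. In the region on chromosome 9 from 62181601 to 62198800 all 4 marks were lower in round spermatids on both scales, with log2 fold differences from -1.18 to -1.61.

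Among the longest regions, those with a long unbroken spermatocyte stretch shared a pattern, noticed after the values were seen. Of 31 long regions of 50000 bp or more, 7 had dense input, defined below. Among the other 24, 13 held 1 unbroken spermatocyte stretch of 51400 to 80000 bp, and in all 13 every mark was lower in round spermatids, on the fold scale and as RPM. All 4 marks were lower by any amount in 46.4% of autosomal regions with all 8 lists on the fold scale and in 38.7% as RPM. Among the 321 long regions of any length with wider spermatocyte islands these shares were 47.7% and 57.3%. They were 31.0% and 5.28% among the 1799 with wider round spermatid islands. The median log2 differences of the 13 were -1.14 (H4K5ac), -1.13 (H4K8bu), -1.12 (H4K8ac) and -0.46 (H4K5bu), so H4K5bu differed least. The 7 regions with dense input also held spermatocyte stretches of 50400 to 85200 bp, and all 4 marks were lower in 4 of these and higher in 1. H4K5ac, H4K8ac and H4K8bu were each at least 1.5-fold lower in 12 of the 13 (background 24.3%). The 13 were picked for their spermatocyte stretch, and a wide, strong stretch in that stage enters both the choice and the difference. RPM counts island width, so the lower RPM in round spermatids follows largely from the choice.

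In these 13 regions the spermatocyte folds stood well above the medians of all long regions. The medians of their round spermatid folds lay a little below or near those of all long regions. Single regions lay lower, with H4K5ac down to 3.77, below the 5th percentile of 4.18 over all long regions. H4K5ac ranged over 3.77 to 7.95 (median 5.92) in round spermatids, against 8.99 to 15.6 (median 13.1) in spermatocytes, and the ranges did not overlap. The medians over all long regions were 6.93 in round spermatids and 7.38 in spermatocytes. H4K8bu ranged over 3.31 to 5.21 (median 4.16) in round spermatids, against 5.80 to 11.6 (median 9.27) in spermatocytes. H4K8ac was at 2.74 to 3.86 (median 3.37) in round spermatids and at 5.09 to 8.36 (median 7.12) in spermatocytes. H4K5bu was at 3.49 to 5.77 (median 5.17) in round spermatids and at 5.73 to 7.91 (median 7.20) in spermatocytes, the only mark whose ranges met. Input reads per kb of island ran over 16.4 to 18.8 in round spermatids, against 11.4 to 13.8 in spermatocytes, beside medians of 16.6 and 13.2 over long regions without dense input.

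In most of the 13 the islands of round spermatids were the more broken up. This follows largely from the choice, since each of the 13 was picked for 1 unbroken spermatocyte stretch. A single round spermatid stretch was held by 4 of the 13, and the others held up to 5. The islands of round spermatids covered a median of 77.0% of the region and those of spermatocytes 98.0%. Spermatocyte islands were the wider in 12 of 13, which the choice also favours. Without that choice they were the wider in 12 of the 24 regions of 50000 bp or more without dense input (50%). Among the 2115 long regions under 50000 bp they were so in 304 (14.4%). Of the 13, 3 also held a round spermatid stretch of 50000 bp or more, of 55400 to 72200 bp. In 1 of these, on chromosome 10 from 75277601 to 75333000, cover was 100% in round spermatids and 92.8% in spermatocytes. The region on chromosome 2 from 92365801 to 92444200 shows the layout at its most broken, with the most round spermatid stretches of the 13. Its H4K5ac reads lay in 4 islands with a fold of 4.84 (4.50 to 5.21) in round spermatids and in 1 island of 77600 bp with a fold of 13.4 (12.5 to 14.4) in spermatocytes. H4K8ac was at 2.88 (2.63 to 3.16) over 36800 bp in round spermatids and at 7.79 (7.26 to 8.37) over 71000 bp in spermatocytes. Round spermatid islands formed 5 stretches, the longest of 48800 bp, where spermatocyte islands formed 1 of 77600 bp. The regions on chromosome 9 from 54054201 to 54124600, on chromosome 7 from 77021801 to 77096200 and on chromosome 17 from 66500201 to 66579600 had H4K5ac folds of 4.09, 5.69 and 3.77 in round spermatids, against 12.95, 13.1 and 10.2 in spermatocytes.

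The remaining 11 regions of 50000 bp or more without dense input were mostly wider in round spermatids. The split left them without a spermatocyte stretch of 50000 bp or more, so narrower and broken spermatocyte cover follows largely from the choice. RPM counts island width and shares this limit. Their islands covered a median of 99.6% in round spermatids and 83.7% in spermatocytes, where they fell into 2 to 5 stretches. None was wider in spermatocytes, and 1, on chromosome 14 from 24890001 to 24945400, was covered to 92.1% in either stage. All 4 marks were lower in round spermatids in 4 of the 11 on the fold scale and in 1 as RPM, which was the region on chromosome 14, with log2 fold differences from -0.45 to -1.23. The median log2 differences were 0.20 (H4K5bu), -0.10 (H4K8bu), -0.17 (H4K5ac) and -0.20 (H4K8ac) on the fold scale, and lay between 0.39 and 0.51 as RPM. The region on chromosome 19 from 45815201 to 45882800, chosen after its values were seen, had 1 stretch of 66000 bp in round spermatids and 5 stretches in spermatocytes. H4K5ac there was at 6.97 (6.51 to 7.47) over 63400 bp in round spermatids, against 8.0 (7.27 to 8.81) in spermatocytes, a log2 difference of -0.20 with overlapping intervals. In 1 of the 11 all 4 marks were higher in round spermatids. That region, on chromosome 5 from 147288001 to 147341800, had H4K5ac at 6.37 (5.83 to 6.96) in round spermatids, against 3.94 (3.44 to 4.52) in spermatocytes.

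**Figure D3:**
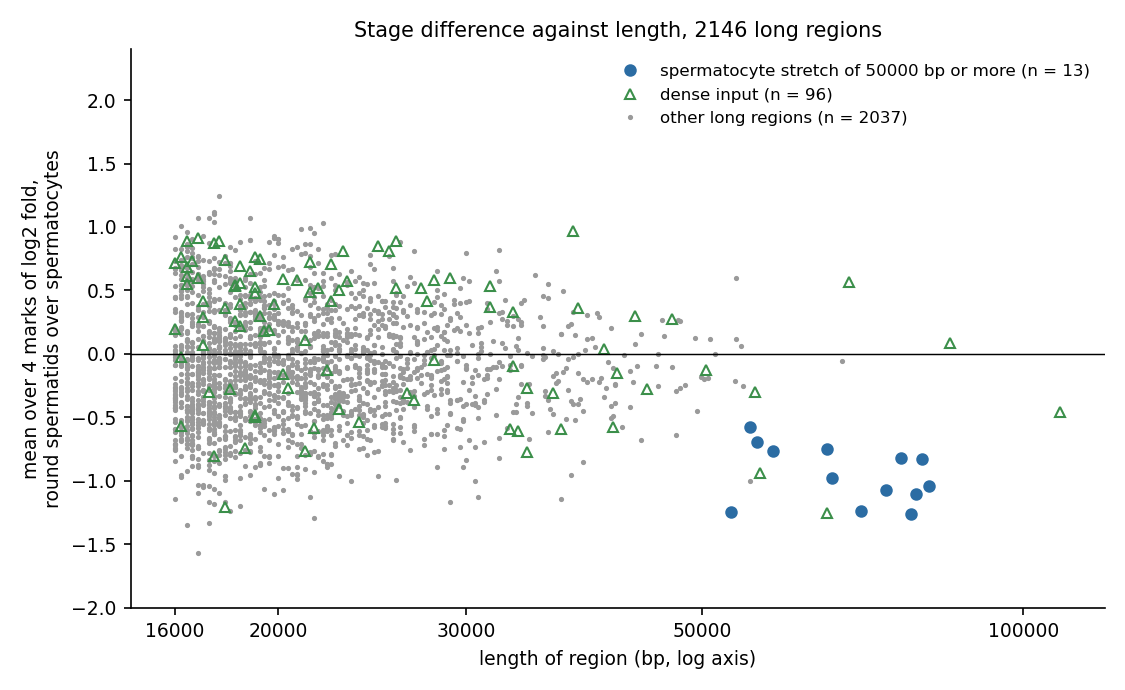
Mean over the 4 marks of the log2 fold of round spermatids over spermatocytes (vertical) against length (bp, log axis), 1 point per long region. The 13 regions with a spermatocyte stretch of 50000 bp or more and without dense input (blue) lie below 0, triangles mark the 96 regions with dense input, and grey points the others, which lie on both sides of 0. In RPM, not drawn, the 13 also have all 4 marks lower in round spermatids, but RPM counts island width, by which the 13 were picked.

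**Figure D4:**
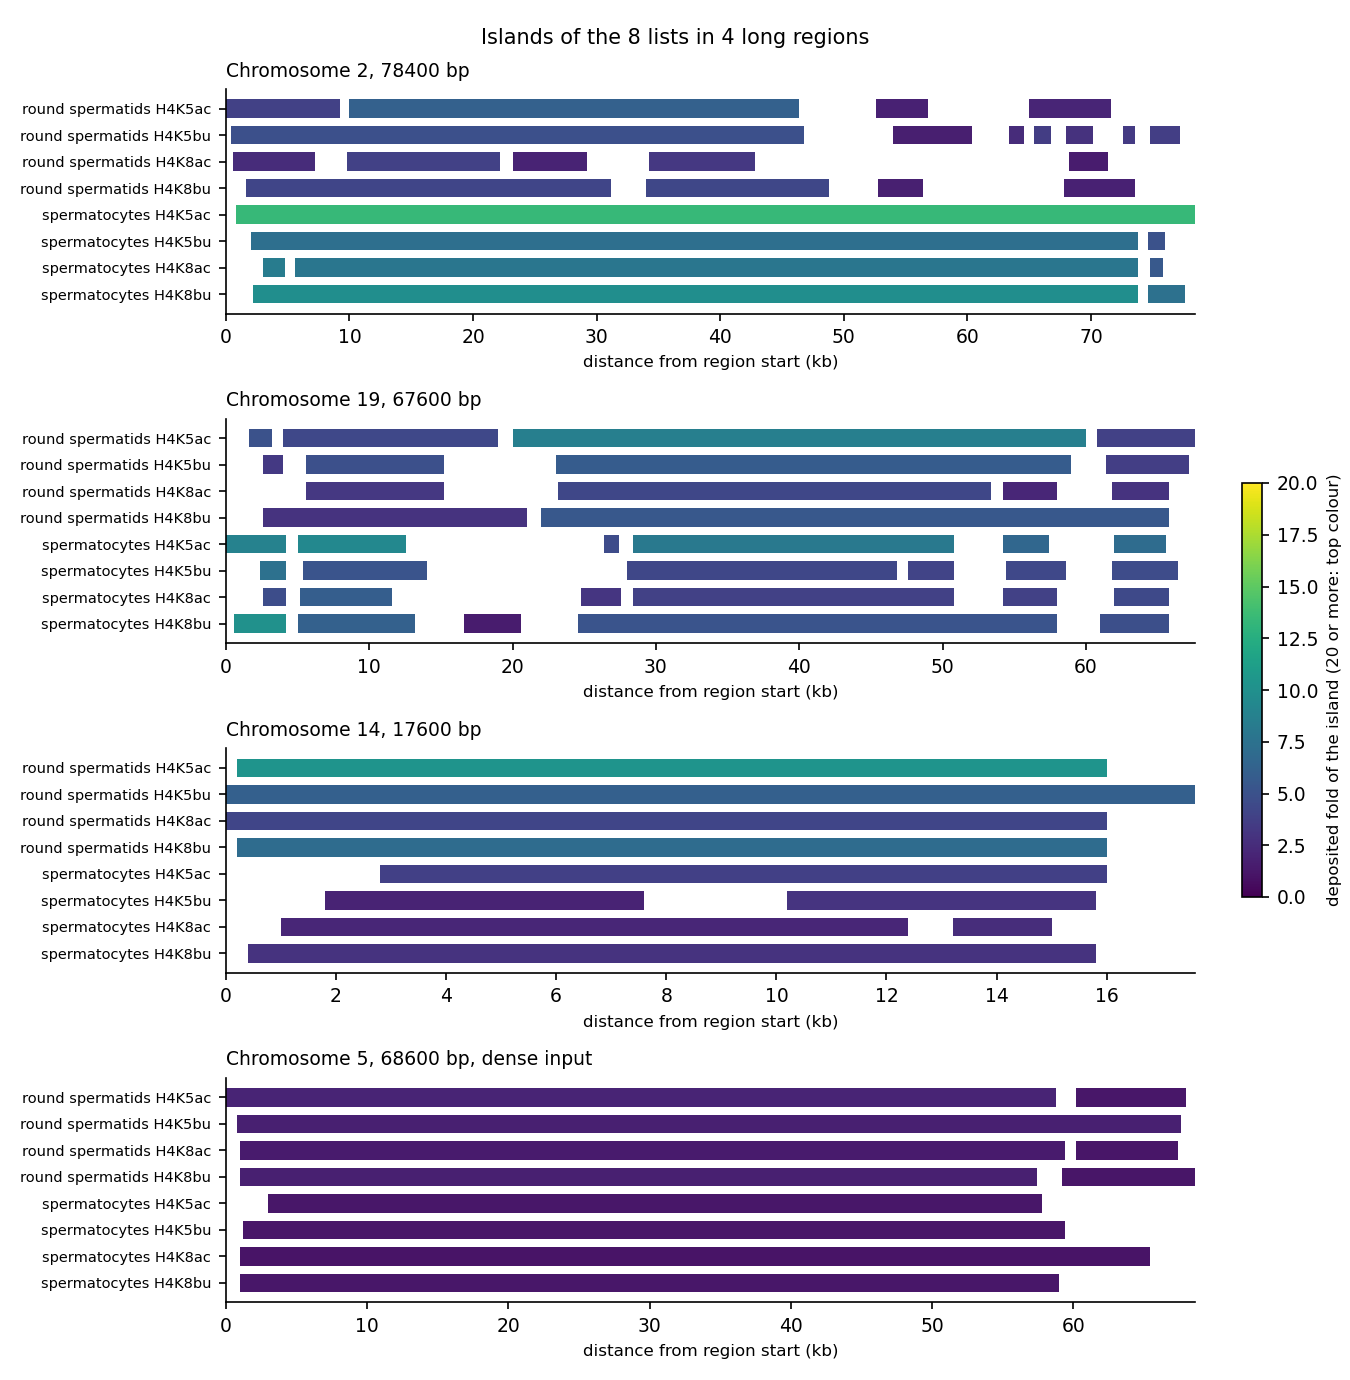
Islands of the 8 lists in 4 long regions, by distance from the region start (kb), round spermatids above spermatocytes, coloured by the deposited fold of the island. On chromosome 2 the spermatocyte islands are nearly unbroken and of higher fold, on chromosome 19 the round spermatid islands are the wider, on chromosome 14 the round spermatid islands have the higher fold, and on chromosome 5 all islands are wide and of low fold.

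The balance of butyryl to acetyl, the log2 ratio of their folds at one lysine, had opposite signs at the 2 lysines. At lysine 5 acetyl was higher: the median balance was -0.46 in round spermatids and -0.67 in spermatocytes, and butyryl exceeded acetyl in 2.61% of the long regions in round spermatids and 1.35% in spermatocytes. At lysine 8 butyryl was higher: the median was 0.38 in round spermatids and 0.28 in spermatocytes, and butyryl exceeded acetyl in 93.9% in round spermatids and 82.6% in spermatocytes. Shorter regions with all 8 lists had the same signs. In those of 8000 to under 16000 bp butyryl exceeded acetyl in 6.13% (round spermatids) and 1.73% (spermatocytes) at lysine 5, and in 87.4% and 80.1% at lysine 8. Under 8000 bp the shares were 13.6% and 2.72% at lysine 5, and 80.6% and 79.2% at lysine 8. Antibodies differ in efficiency, so the zero of this scale has no chemical meaning and only its change is comparable.

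Towards round spermatids the balance at lysine 5 was higher by a median of 0.19 (0.18 to 0.21), in 1666 long regions (77.6%, near the background of 76.4%), and as RPM by a median of 0.041. The change at lysine 5 was smaller than in shorter regions, where its median was 0.24 (8000 to under 16000 bp) and 0.34 (under 8000 bp). In the long regions of 30000 bp or more it was also 0.24. At lysine 8 the balance was higher by 0.11 (0.10 to 0.12), in 1410 long regions (65.7%, background 56.0%), but as RPM it was lower, by a median of -0.17. In shorter regions the median change at lysine 8 on the fold scale was 0.077 (8000 to under 16000 bp) and 0.0075 (under 8000 bp). A change of 1.5-fold or more was rare. At lysine 5, 220 long regions were past it towards butyryl in round spermatids (10.3%, background 24.9%) and 18 towards acetyl (0.839%, background 2.02%). At lysine 8, 137 were past it towards butyryl (6.38%, background 9.79%) and 48 towards acetyl (2.24%, background 7.62%).

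In the 13 regions with a spermatocyte stretch of 50000 bp or more and without dense input, the balance at lysine 5 changed by a median of 0.58 and that at lysine 8 by 0.01. At lysine 5 it was higher in round spermatids on the fold scale in 13 of 13 (background 76.4%). It was so in all 11 others of 50000 bp or more without dense input, with a median change of 0.24, and in 5 of the 7 with dense input. As RPM, the median stage differences of the 13 were -1.69 (H4K5ac) and -1.12 (H4K5bu). Those of the 11 were 0.46 (H4K5ac) and 0.44 (H4K5bu), and in some of the 11 H4K5ac had the higher RPM difference. On chromosome 9 from 54054201 to 54124600 the balance at lysine 5 was 0.09 in round spermatids and -0.95 in spermatocytes. Acetyl at lysine 5 carried that change, with folds of 4.09 in round spermatids and 12.95 in spermatocytes, beside 4.36 and 6.72 for butyryl. The largest change at lysine 5, 1.84 on chromosome 4 from 149653001 to 149671800, came with unlike widths: the spermatocyte H4K5bu island spanned 18400 bp and the spermatocyte H4K5ac island 4800 bp. At lysine 8 the largest was 1.93, on chromosome 4 from 62156001 to 62172200, where H4K8bu was at 5.43 and H4K8ac at 1.84 in round spermatids, against 3.54 and 4.57 in spermatocytes.

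**Figure D5:**
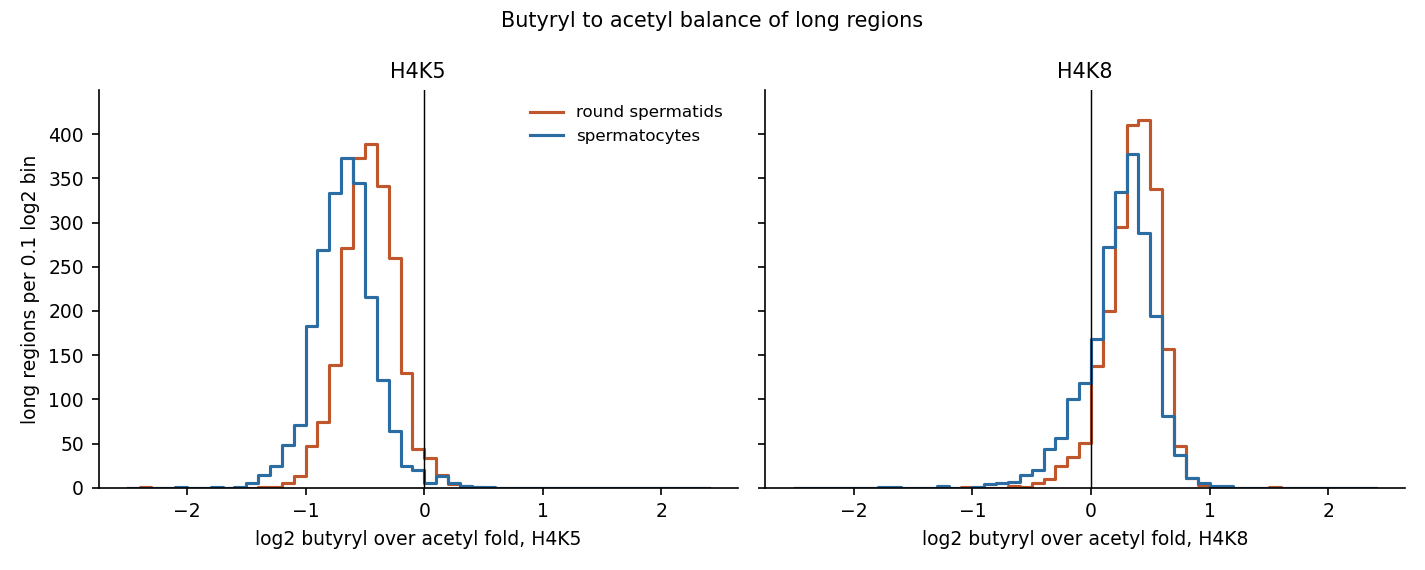
Number of long regions (vertical) by log2 ratio of butyryl to acetyl fold, in bins of 0.1, at H4K5 (left) and H4K8 (right), for round spermatids (orange) and spermatocytes (blue). Medians are -0.46 in round spermatids and -0.67 in spermatocytes at H4K5, and 0.38 and 0.28 at H4K8. As RPM the change at H4K5 is 0.041 and that at H4K8 has the opposite sign, -0.17.

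Dense input marked a small set of long regions with low fold. Regions in the top 5% of input reads per kb of island in either stage, ranked over all autosomal regions with all 8 lists, numbered 96 among the long regions (4.47%). Their median H4K8bu fold was 2.87 in round spermatids and 2.57 in spermatocytes, against 4.69 and 5.34 in the other 2050, and that of H4K5ac was 4.01 in round spermatids and 3.50 in spermatocytes. All 5 long regions with a fold under 2 in every list were among them. On chromosome 5 from 15112601 to 15141600, input reads reached 184 per kb in round spermatids and 177 in spermatocytes, and all 8 lists overlapped on 98.6% of the region. Its H4K5ac fold was 1.97 in round spermatids, and its lowest fold in spermatocytes was 1.06, that of H4K8ac. A neighbouring region of 68600 bp, from 14898801 to 14967400, had H4K5bu at 1.79 (1.73 to 1.85) in round spermatids, against 1.10 (1.06 to 1.15) in spermatocytes. The longest region of all, on chromosome 17 from 30692001 to 30800400, also had dense input, and its H4K5ac fold was 3.45 in round spermatids and 4.67 in spermatocytes. Whether copy number or reads that map to several places enter these values was not tested.

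Long regions lay on every autosome, from 6.39 per 10 Mb on chromosome 1 to 13.95 on chromosome 11, and made up 9.98% (chromosome 8) to 16.3% (chromosome 6) of the regions with all 8 lists. Within 100000 bp of another long region lay 858 of them (40.0%), in 350 groups. Of all regions with all 8 lists, 84.6% lay that close to another such region. That larger set is denser, with a median gap of 53200 bp, against 365200 bp from a long region to the next. The shares are therefore not comparable, and whether long regions lay closer together than their number alone would give was not tested. The largest groups held 7 each, on chromosome 11 from 69351401 to 69845800 and on chromosome 7 from 52062201 to 52480800. In these groups the median H4K5ac fold was 6.78 and 7.06 in round spermatids, against 10.4 and 9.49 in spermatocytes. Genes, promoters and sequences were not assigned, since no annotation of build mm9 was used here.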

How the data were processed

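ChIP-seq of 4 histone marks in round spermatids and spermatocytes was used, with 1 library per mark and stage and 1 input library per stage. Per the submitters' processing notes, CASAVA 1.8.2, Bowtie2 2.2.5, deepTools 1.5.11 and SICER were used with build mm9. The sources used here do not state the settings of these tools or the handling of duplicate and multiply mapped reads. The authors deposited 8 island lists without headers, each holding per island a count for ChIP and a count for input. The deposited p-value and q-value of each island were not used beyond the finding that the largest q-value was 0.00997. Each deposited fold equalled ChIP count over input count, a ratio, multiplied by a constant of the list, except in 4 islands with 0 input reads. The input libraries enter only through the counts in these lists.

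Islands were merged with Python 3.11.15, numpy 2.4.6 and pandas 2.3.3, and the code was tested on simulated data. The fold of a region was its summed ChIP reads over its summed input reads in the islands of a list, times the constant of that list. It covers called islands alone and so depends on how far a list extended them. A region was called different when its fold differed 1.5-fold or more. A stretch is an unbroken run of bases under islands of any mark of 1 stage. RPM were ChIP reads in the islands of a region scaled to all island ChIP reads of the list. Fold intervals were exact conditional binomial (scipy 1.17.1), and median intervals came from order statistics. Without molecular identifiers reads need not be separate molecules, so fold intervals cover counting error only. Coordinates are mm9, counted from 1.

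Named regions were the 10 longest, the 5 highest and 3 lowest by mean log2 fold, the 3 per direction with the largest mean stage difference and the 2 per lysine and direction with the largest change of balance (both with 100 reads or more in every list), the 3 with the most and the 3 with the least length under all 8 lists, and 3 on either side of 16000 bp. The text gives those it needs. The members, lists and comparisons were chosen with earlier results of these data known. The limit of 50000 bp and the split by spermatocyte stretch were chosen after the values were seen. No gene was assigned.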

Additional observations from a re-analysis of the deposited data

How the results depend on the processing

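Each alternative was set beside the values above, and the causes of the moves were not tested unless the alternative itself gives them. Of 204 values recomputed, 115 moved by less than the interval or the 1.5-fold limit, 84 moved by more and 5 reversed. A minimum of 12000 bp gave 4167 regions and one of 20000 bp gave 1116, by construction, with 37.2% and 39.4% of the length under all 8 lists, and at 20000 bp H4K8bu was past 1.5-fold higher in round spermatids in 3.32%. Requiring islands of fold 2 or more, or leaving out the 96 regions with dense input, changed no count by over 1.5 times. With lists of equal length by fold, the stage medians became -0.23 (H4K5ac), 0.0015 (H4K5bu), -0.45 (H4K8ac) and -0.31 (H4K8bu). Past 1.5-fold higher were then 3.82% (H4K5ac), 6.40% (H4K5bu), 0.411% (H4K8ac) and 0.823% (H4K8bu), and lower 24.97% (H4K5ac). The lysine 5 balance changed by 0.23, past 1.5-fold in 15.8% towards butyryl and 1.47% towards acetyl, and all 8 lists shared 36.1% of the length. Where every list had to cover 50% of the length, 831 regions were left, sharing 51.7%. The stage medians were 0.058 (H4K5ac, reversed), 0.20 (H4K5bu), -0.17 (H4K8ac) and -0.079 (H4K8bu). Past 1.5-fold lower were 7.22%, 1.81%, 14.3% and 11.3% in that order. The balance changed by 0.15 (lysine 5) and 0.089 (lysine 8), past 1.5-fold towards butyryl in 3.01% and 1.203%, and towards acetyl in 0% and 0.12%. By the longest island alone, 8.01% were past 1.5-fold lower for H4K5bu and 7.27% higher for H4K8ac. The balance then changed by 0.22 at lysine 5 and 0.078 at lysine 8, past 1.5-fold towards butyryl in 19.3% and 13.7% and towards acetyl in 4.47% and 6.15%. As RPM without input, the stage medians reversed to 0.33 for H4K5ac, 0.45 for H4K8ac and 0.28 for H4K8bu, with 0.36 for H4K5bu. Past 1.5-fold higher were 26.3% (H4K5ac), 31.8% (H4K5bu), 38.5% (H4K8ac) and 21.3% (H4K8bu), and lower 6.20% (H4K5ac), 6.57% (H4K8ac) and 5.73% (H4K8bu). The balance changed by 0.041 at lysine 5 and reversed to -0.17 at lysine 8, past 1.5-fold towards butyryl in 4.24% and 2.24% and towards acetyl in 1.35% and 10.1%. The smallest ChIP count behind a fold was 46 reads in a list. No paired analysis was possible because each group had 1 library.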
